A study of Mus musculus with 4 samples.

Results

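The replication-dependent histone genes lie in clusters, and 69 of the 24497 gene entries in the expression table belong to them by symbol, which begins with Hist1h, Hist2h, Hist3h or Hist4h. Of these, 6 belong to linker histone H1, 19 to core histone H2A, 19 to H2B, 12 to H3 and 13 to H4, with a pseudogene each in the H2A class (Hist1h2al) and the H2B class (Hist3h2bb-ps). By cluster, 55 belong to Hist1, 10 to Hist2, 3 to Hist3 and 1 to Hist4. Expression was measured by RNA-seq in mouse acute myeloid leukemia cells made from bone marrow hematopoietic stem cells and carrying NRAS and AE9a, a truncated AML1-ETO fusion. The KO-labelled group (n = 2 libraries) came from Tet2-/- mice, in which exons 8 to 10 of the gene were absent, and the WT group (n = 2 libraries) from wild-type mice. Both groups carried the same oncogenes and were grown in RPMI medium with SCF, IL-3, IL-6, G418 and puromycin, and RNA was made into libraries with a KAPA stranded mRNA kit. The labels do not say whether the replicates were separate cultures or came from separate mice, and the p-values below therefore cover only the spread among these 4 libraries, part or all of which may be technical.

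Histone cluster genes supply the bulk of the histones that package newly copied DNA, and their expression is tied to S phase of the cell cycle. Their transcripts have no introns as a rule and end in a conserved stem-loop, bound by the protein SLBP, in place of a poly(A) tail. Smaller amounts of polyadenylated transcripts are made from many of the same genes, for example in differentiating cells. The mRNA kit selects polyadenylated RNA, so the values describe what such a library holds of each gene and need not follow its whole transcript pool.

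The stem-loop is shown first because it defines this gene class. It was sought after the stop codon of every annotated transcript, or anywhere in a transcript with no annotated coding sequence. The pattern was GG, any 3 bases, TTT, any 2 bases, A, any 3 bases and CC, with the outer 6 bases on each side perfectly paired around a loop of 4 bases. A match in any transcript counted for the gene, and 44 of the 69 genes had it. Of the 25 genes without it, 19 have fewer than 30 annotated bases after the stop codon in the first coding transcript listed, or no annotated coding sequence. A missing match can therefore reflect where the annotation ends. In the windows below, from GENCODE mouse release 21 transcripts, capitals mark the stem-loop, and the DNA letters stand for the transcript strand from 5′ to 3′.
Hist1h1e: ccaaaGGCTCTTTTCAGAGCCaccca
Hist1h2ap: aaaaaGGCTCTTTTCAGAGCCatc
Hist1h2bb: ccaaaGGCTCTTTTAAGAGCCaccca
Hist2h2ac: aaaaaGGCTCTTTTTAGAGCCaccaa
Hist1h4d: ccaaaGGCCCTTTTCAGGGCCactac
Hist1h4i: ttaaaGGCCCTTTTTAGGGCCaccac
The form of Hist1h1e and Hist1h2ap was the most common, in 26 genes of the H1, H2A, H2B and H3 classes, and that of Hist1h2bb was found in 6 genes of the H1, H2B and H3 classes. The form of Hist2h2ac was found in that gene only. The H4 genes with a match had stems of other letters, with the form of Hist1h4d in 7 genes and that of Hist1h4i in 2. Another 2 H4 genes carried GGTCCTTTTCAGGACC, and Hist1h4a and Hist1h4k had no match. Annotated transcripts ran on for 3 to 4884 bases after the stem-loop, with a median of 112.5 bases over the 44 genes, taking the longest where a gene had several.

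The promoters of 61 of the 69 genes were available from RefSeq on GRCm38.p6, each with 250 bases before and 50 bases from the annotated start. The 4 motifs were searched on both strands, and each is described only as letters in these windows. The CCAAT box (CCAAT, reverse ATTGG) was in 52 of 61 promoters (85.2%), against 37.9% of all 27025 promoters in that collection. A TATA box (TATAAA, reverse TTTATA) was in 35 (57.4%, against 14.2% of all). The octamer (ATTTGCAT, reverse ATGCAAAT), a known element of H2B promoters, was in 7 of 17 H2A and 6 of 16 H2B promoters and in no promoter of another class, against 1.75% of all. In 13 pairs of an H2A and an H2B gene, transcribed away from each other, the starts lie 173 to 306 bases apart. Windows of paired genes therefore share DNA, and the same motif can be counted for both. The letters AAACACA (reverse TGTGTTT), a known element of H1 promoters, were in 5 of 6 H1 promoters, against 7.14% of all. They were also in 2 of 17 H2A and 2 of 16 H2B promoters and in no H3 or H4 promoter. Among the H4 promoters 3 of 12 held CCAAT, while all 49 promoters of the other classes did. Below are the promoters of Hist2h2ac, Hist3h2a and Hist1h1e, which rose in the KO-labelled libraries as described later, and of Hist1h1c, an H1 gene that did not pass the test. Capitals mark the motifs, and each sequence reads along its gene's strand.
Hist2h2ac, chr3:96220831-96221130, minus strand: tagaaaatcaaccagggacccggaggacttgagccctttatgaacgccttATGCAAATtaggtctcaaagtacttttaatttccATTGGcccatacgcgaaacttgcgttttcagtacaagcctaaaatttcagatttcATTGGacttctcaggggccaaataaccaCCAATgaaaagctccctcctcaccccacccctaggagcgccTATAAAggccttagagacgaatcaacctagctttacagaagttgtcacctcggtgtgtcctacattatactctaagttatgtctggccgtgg
Hist3h2a, chr11:58954435-58954734, plus strand: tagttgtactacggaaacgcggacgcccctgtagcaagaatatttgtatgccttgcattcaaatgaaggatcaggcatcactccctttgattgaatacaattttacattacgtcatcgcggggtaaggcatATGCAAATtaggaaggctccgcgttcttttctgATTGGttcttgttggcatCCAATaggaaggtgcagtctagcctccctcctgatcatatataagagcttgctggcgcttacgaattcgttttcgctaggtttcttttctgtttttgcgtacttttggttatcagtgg
Hist1h1e, chr13:23622509-23622808, minus strand: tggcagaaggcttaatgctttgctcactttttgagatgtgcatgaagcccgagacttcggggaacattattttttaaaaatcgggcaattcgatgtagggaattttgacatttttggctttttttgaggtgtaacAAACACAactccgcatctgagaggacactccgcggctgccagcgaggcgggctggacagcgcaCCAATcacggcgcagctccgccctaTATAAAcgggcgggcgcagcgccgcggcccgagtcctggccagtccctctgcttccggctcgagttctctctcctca
Hist1h1c, chr13:23738557-23738856, plus strand: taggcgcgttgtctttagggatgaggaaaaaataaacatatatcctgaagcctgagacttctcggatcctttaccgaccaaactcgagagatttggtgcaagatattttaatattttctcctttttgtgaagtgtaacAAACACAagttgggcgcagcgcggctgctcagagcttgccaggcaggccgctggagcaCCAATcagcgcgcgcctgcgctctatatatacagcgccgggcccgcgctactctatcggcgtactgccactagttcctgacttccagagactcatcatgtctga
The Hist2h2ac window held the octamer 200 bases before the start, a CCAAT box 83 bases before it and a TATA box 42 bases before it, with 2 further CCAAT boxes on the reverse strand. That window also holds the start of Hist2h2be, which is transcribed the other way from a start 239 bases away. The Hist1h1e and Hist1h1c windows held AAACACA and CCAAT at nearly the same distances from the start, 115 and 52 bases for Hist1h1e and 112 and 54 bases for Hist1h1c.

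The libraries had between 11630 and 11731 genes at 1 TPM or more, where TPM is a transcript's reads per unit of length, scaled to the same total in each library. TPM keep no read depth, so no counting error can be given. Tet2 itself had 53.5 and 52.8 TPM in the KO-labelled libraries, against 35.05 and 39.95 TPM in the WT libraries (log2 change 0.50, SE 0.067, adjusted p = 0.0054), a call lost without KO-labelled replicate 1 (adjusted p = 0.063) or 2 (adjusted p = 0.057). A value for the whole gene cannot check a deletion of 3 exons, and the groups are therefore compared by their labels. Markers were called by the test given in the next paragraph, in which 18.9% of all kept genes were higher and 11.6% lower. Neutrophil maturation markers differed with the labels, with 11 of 12 lower and a summed level of 23821 and 24118 TPM in the KO-labelled libraries, against 47298 and 46650 TPM in WT. Of 7 genes listed as leukemic progenitor markers 5 were higher (Kit, Cd34, Mpo, Ptprc and Cebpa), Spi1 was lower and Myb was not called. Their sums were 1903 and 1948 TPM in the KO-labelled libraries and 1548 and 1608 TPM in WT. Mpo alone had 990 and 1037 TPM in the KO-labelled libraries and 731 and 758 TPM in WT. Of the erythroid markers 2 were kept, with list sums of 211 and 233 TPM in the KO-labelled libraries and 142 and 136 TPM in WT, mostly Hbb-bt, and with Hbb-bs listed at 0 in all 4 libraries. None of the 5 measured lymphoid markers was kept, with list sums of 0.41 and 0.21 TPM in the KO-labelled libraries and 0.21 and 0.46 TPM in WT and Cd3e listed at 0. Stromal and endothelial markers summed to 13.2 and 13.2 TPM in the KO-labelled libraries and 14.0 and 13.6 TPM in WT, and of the 2 kept Pdgfrb was higher (0.48, adjusted p = 0.0054) and Vwf lower (-0.66, adjusted p = 0.0035). The part of these shifts in the histone results was not tested. In bulk RNA, fewer cells of a type and less RNA per cell cannot be told apart.

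In the KO-labelled libraries, 18 of the 56 histone cluster genes that reached 1 TPM in 2 or more libraries rose (32.1%), 0 fell and 38 did not pass. A gene was called at an adjusted p under 0.05 in limma on log2(TPM + 1), with Benjamini-Hochberg adjustment over all 11837 genes kept by the same filter, of which 18.9% were higher and 11.6% lower. At an unadjusted p under 0.05, 25 of the 56 were higher, 0 were lower, and 27.0% of all kept genes were higher. Changes are given as KO-labelled minus WT on that log2 scale, and for genes at low TPM they come out too small because of the added 1. The median change was 0.40 for the 56 genes and 0.04 for all kept genes. The change was above 0 in 46 of the 56 (58.8% of all kept genes), and both KO-labelled libraries exceeded both WT libraries for 36 of them (42.2% of all kept genes). No histone cluster gene had both KO-labelled libraries below both WT libraries, as 26.5% of all kept genes had. Among the 1555 kept genes whose mean TPM lay within the histone genes' interquartile range, 2.35 to 6.66 TPM, 14.2% were called higher and 37.5% had both KO-labelled libraries above WT.

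Fewer genes were called when a KO-labelled library was left out, among all genes as well as the histone genes. A fit with a single KO-labelled library takes its spread from the WT pair and from other genes and assumes that the lone library varies alike. Without KO-labelled replicate 1, 6 of the 56 genes were higher, 3 of them among the 18, with 4.22% of all kept genes higher. Without KO-labelled replicate 2, 7 were higher, 5 of them among the 18, with 4.29% of all kept genes higher. The median change of the histone genes was 0.40 without replicate 1 and 0.36 without replicate 2, against 0.40 with all libraries. With no filter on low values, 66 histone genes were tested and 9 were higher, with 9.14% of all entries tested higher. In limma with no filter, 10 of the 18 calls were lost (adjusted p = 0.053 to 0.113). These were Hist1h1a, Hist1h2ai, Hist1h2bb, Hist1h2bc, Hist1h2bn, Hist1h3a, Hist1h4d, Hist1h4f, Hist1h4i and Hist2h2ac, and the class passages below do not all repeat it. Hist1h1e kept its call under all 15 alternatives, and each of the other 17 lost it without at least 1 library, though all 18 kept a positive change under every alternative tried. With values scaled to the spike-ins, which lowered the median of all genes by 0.11 to -0.07, 14 histone genes were higher and 0 lower while 5.33% of all kept genes were higher and 12.5% lower. The histone median then lay 0.37 above that of all genes, against 0.36 with the deposited scale. The spike-ins made up 3.41% and 3.39% of TPM in the KO-labelled libraries and 2.98% and 3.30% in WT.

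**Figure D1:**
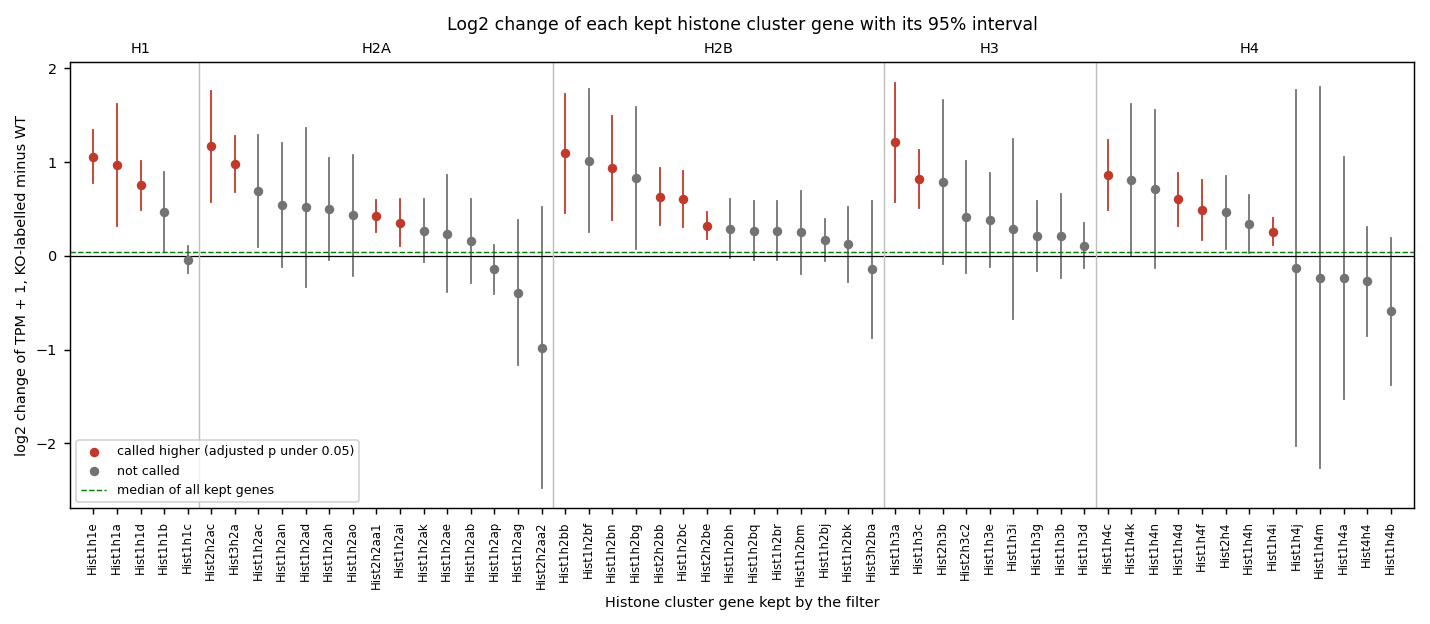
Log2 change of TPM + 1, KO-labelled minus WT, of each of the 56 kept histone cluster genes (points) with its 95% interval (lines) from limma, grouped by class and ordered by size, with red for the 18 called higher. The dashed line is the median of all kept genes, 0.04, and 46 of the 56 points lie above 0.

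Most of these genes were at low levels. The median of their mean TPM was 3.46, against 22.1 for all kept genes, and the median SE of their change was 0.18, against 0.059. Of the 20 genes that averaged at least 5 TPM, 11 rose, beside 18.9% of all kept genes. Of the 49 below that level 36 were kept and 7 rose, a share near that of all kept genes. The 13 genes not kept reached 1.89 TPM at most, and 7 of them had both KO-labelled libraries above both WT libraries. Of all entries 23.7% had this, a share that includes the kept genes, of which 42.2% had it. The share among entries not kept is not given, so the 7 have no like background here. Among those 13, Hist1h2aa and Hist1h2ba, the testis forms of H2A and H2B, were listed at 0 in all 4 libraries, as was Hist2h3c1, an identical coding copy of Hist2h3c2.

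The summed level of the 69 genes was 721 and 705 TPM in the KO-labelled libraries, against 574 and 643 TPM in the WT libraries. A single H2A gene, Hist1h2ap, made up 35.8% and 38.7% of that sum in the KO-labelled libraries and 45.6% and 51.1% in WT. Without it the sums were 463 and 432 TPM in the KO-labelled libraries and 312 and 314 TPM in WT, a ratio of 1.43, against 1.17 with it. Leaving out single genes was not planned, and dropping an abundant gene that did not rise raises the ratio by itself. Each class sum other than that of H2A was higher in both KO-labelled libraries than in both WT libraries. The H2B genes summed to 136 and 127 TPM in the KO-labelled libraries, against 80.3 and 92.1 TPM in WT. The H3 genes summed to 53.7 and 47.6 TPM in the KO-labelled libraries, against 35.6 and 29.0 TPM in WT, and the H4 genes to 87.7 and 81.3 TPM, against 62.6 and 58.4 TPM in WT. The ratio of means, KO-labelled over WT, was 1.52 for H2B, 1.57 for H3 and 1.40 for H4. Without Hist1h2bc, its most abundant gene, the H2B ratio was also 1.52. These sums are given as a description, with no test. The smallest p that 2 libraries a group allow in an exact two-sided permutation test is 0.333.

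**Figure D2:**
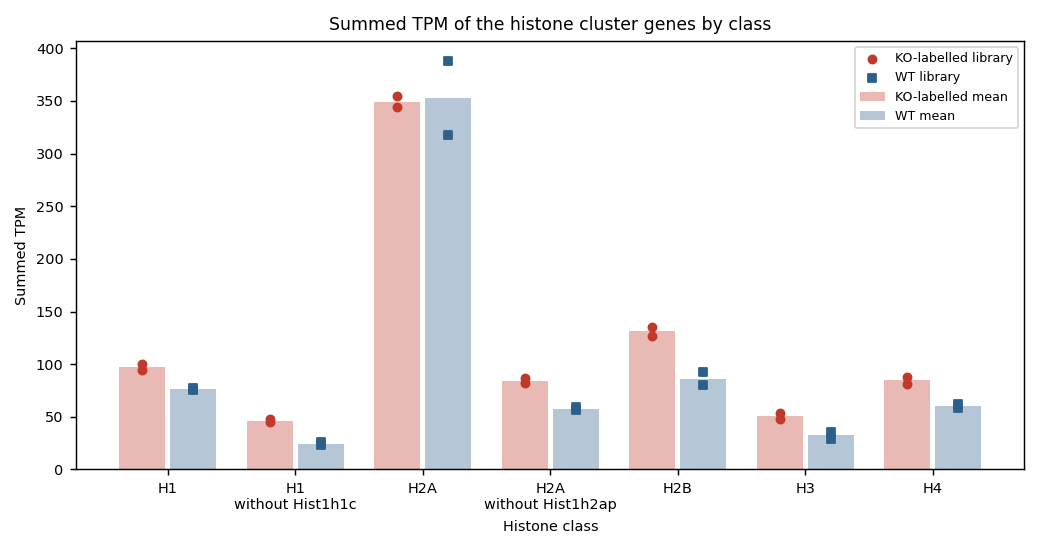
Summed TPM of the histone cluster genes of each class, with points for the 2 KO-labelled and 2 WT libraries and bars for their means, also for H1 without Hist1h1c and H2A without Hist1h2ap. The H2A sum overlaps between groups, at 344 and 354 TPM in KO-labelled libraries and 318 and 388 TPM in WT, and without Hist1h2ap it does not. The sums without a gene were not planned.

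Linker histones bind the DNA between nucleosomes, and 3 of the 5 kept H1 genes rose (60%, against 18.9% of all kept genes), with 0 lower. Hist1h1e (chr13:23620629-23622558) had 19.01 and 16.01 TPM in the KO-labelled libraries, against 8.60 and 7.18 TPM in WT, a log2 change of 1.06 (SE 0.11, adjusted p = 0.0027). Its KO-labelled values lay well above both WT values, and no library decided the call. Its exons overlap those of Hist1h2be and Gm11398 on the same strand, so reads there can have been divided between them. Hist1h1d (chr13:23553262-23560686), whose annotated transcript runs 4884 bases past its stem-loop, had 15.5 and 13.2 TPM in the KO-labelled libraries and 7.47 and 8.70 TPM in WT (0.75, SE 0.10, adjusted p = 0.0057). Hist1h1a (chr13:23763666-23764406) had 6.62 and 6.01 TPM in the KO-labelled libraries and 1.81 and 3.95 TPM in WT (0.97, SE 0.26, adjusted p = 0.042), and its WT libraries differed more from each other than its KO-labelled ones. The most abundant H1 gene did not pass. Hist1h1c (chr13:23738808-23740367) had 52.1 and 49.4 TPM in the KO-labelled libraries and 54.6 and 49.9 TPM in WT, so the groups overlapped, with a change of -0.04 (95% interval -0.18 to 0.10, adjusted p = 0.62). Without Hist1h1c, the H1 genes summed to 47.8 and 45.1 TPM in the KO-labelled libraries and 23.1 and 25.9 TPM in WT, a ratio of 1.90, and with it the ratio was 1.27. That exclusion was not planned, and dropping an abundant gene that did not rise raises the ratio by itself. Hist1h1b, at 6.68 and 9.80 TPM in the KO-labelled libraries and 5.18 and 6.01 TPM in WT, did not pass (adjusted p = 0.093), and the testis gene Hist1h1t stayed at or below 0.12 TPM. The Hist1h1a call was lost without KO-labelled replicate 1 (adjusted p = 0.196) or 2 (adjusted p = 0.157), and that of Hist1h1d without KO-labelled replicate 1 (adjusted p = 0.053). Hist1h1a also did not pass with no filter (adjusted p = 0.113), a pseudocount of 0.1 (adjusted p = 0.05004), no variance trend (adjusted p = 0.081) or robust variances (adjusted p = 0.102).

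H2A forms a dimer with H2B, and 4 of the 15 kept H2A genes rose (26.7%, against 18.9% of all kept genes), with 0 lower. Hist1h2ap (chr13:21833026-21833507) was by far the most abundant histone cluster gene, at 258 and 273 TPM in the KO-labelled libraries and 261 and 329 TPM in WT. Its groups overlapped, the second WT library was the highest of the 4, and the change was -0.14 (SE 0.11, adjusted p = 0.35). Its annotated transcript ends 3 bases after the stem-loop, and its coding sequence is identical to that of Hist1h2ao. The sum of the pair was 266 and 280 TPM in the KO-labelled libraries and 265 and 337 TPM in WT, so the groups overlapped for the pair too. Hist2h2ac (chr3:96220361-96220880) had 5.54 and 3.62 TPM in the KO-labelled libraries, against 1.05 and 1.92 TPM in WT (1.17, SE 0.24, adjusted p = 0.018). Hist3h2a (chr11:58954685-58956830), the H2A gene of the small Hist3 cluster, had 16.5 and 17.4 TPM in the KO-labelled libraries and 7.04 and 9.20 TPM in WT (0.98, SE 0.12, adjusted p = 0.0038). Its KO-labelled values were close together and above both WT values, but its exons overlap Trim17 on the same strand.

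Hist2h2aa1 (chr3:96245497-96246082) had 25.4 and 28.0 TPM in the KO-labelled libraries and 20.5 and 18.8 TPM in WT (0.42, SE 0.069, adjusted p = 0.0096). This value is uncertain because its coding sequence is identical to that of Hist2h2aa2 and its exons overlap Gm20634 on the same strand. Hist2h2aa2 was listed at 2.30 and 0 TPM in the KO-labelled libraries and 3.93 and 1.60 TPM in WT (-0.98, adjusted p = 0.27), which was the lowest change of the 56 genes. The sum of both copies was 27.7 and 28.0 TPM in the KO-labelled libraries, against 24.4 and 20.4 TPM in WT, so the groups did not overlap for the pair either. Hist1h2ai (chr13:21716422-21716814) had 3.34 and 3.51 TPM in the KO-labelled libraries and 2.32 and 2.61 TPM in WT (0.35, SE 0.10, adjusted p = 0.049), just past the threshold. The Hist1h2ai call was lost without any 1 library (adjusted p = 0.071 to 0.19), and spike-in scaling also ended it (0.27, adjusted p = 0.15). In all it was lost under 11 of 14 alternatives, among them trimmed-mean scaling (adjusted p = 0.059), quantile scaling (adjusted p = 0.054), no filter (adjusted p = 0.088) and a pseudocount of 0.1 (adjusted p = 0.052). That of Hist2h2ac was lost without KO-labelled replicate 1 (adjusted p = 0.109) or 2 (adjusted p = 0.052) or WT replicate 1 (adjusted p = 0.074), that of Hist3h2a without KO-labelled replicate 2 (adjusted p = 0.05005), and that of Hist2h2aa1 without KO-labelled replicate 2 (adjusted p = 0.074) or with spike-in scaling (0.31, adjusted p = 0.068). Without WT replicate 1 Hist1h2ap was called lower (-0.31, adjusted p = 0.022), and without WT replicate 2 its change was 0.020 (adjusted p = 0.76).

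Among the 14 kept H2B genes 5 rose (35.7%, against 18.9% of all kept genes) and 0 fell. Of all 19 H2B genes 14 had both KO-labelled libraries above both WT libraries, as 23.7% of all entries had, kept or not. Among the 14 kept H2B genes 11 had this, against 42.2% of all kept genes. Hist1h2bc (chr13:23684199-23692908) was the most abundant, with 61.6 and 63.5 TPM in the KO-labelled libraries, against 35.6 and 46.5 TPM in WT (0.61, SE 0.12, adjusted p = 0.017). Its annotated transcript has 2 exons, 742 bases after the stop codon and no stem-loop, and its coding sequence is 99.5% identical to that of Hist1h2bq. Hist2h2be (chr3:96221119-96223738), which also has no stem-loop in its 2192 bases after the stop codon, had 12.2 and 11.7 TPM in the KO-labelled libraries and 9.43 and 9.25 TPM in WT (0.32, SE 0.059, adjusted p = 0.014). The replicates of Hist2h2be lay close together in both groups. Hist1h2bb (chr13:23746734-23747241) had 4.85 and 4.66 TPM in the KO-labelled libraries, against 1.05 and 2.53 TPM in WT (1.10, SE 0.25, adjusted p = 0.027). Hist1h2bn (chr13:21754123-21754503) had 10.8 and 6.34 TPM in the KO-labelled libraries and 3.63 and 4.11 TPM in WT (0.93, SE 0.22, adjusted p = 0.029), with a wide gap between the KO-labelled libraries. Hist2h2bb (chr3:96269752-96270132) had 4.36 and 4.44 TPM in the KO-labelled libraries and 2.84 and 2.16 TPM in WT (0.63, SE 0.12, adjusted p = 0.016). Its exons overlap Gm42743 on the same strand, so reads there can have been divided. Hist1h2bj, lower in level than Hist1h2bc and Hist2h2be, had 11.3 and 10.4 TPM in the KO-labelled libraries and 10.3 and 8.81 TPM in WT and did not pass (0.17, adjusted p = 0.21). Hist1h2bq and Hist1h2br, which share their coding sequence, were listed with the same values in all 4 libraries. Without KO-labelled replicate 1 or 2 the calls of Hist1h2bb (adjusted p = 0.147 and 0.134), Hist1h2bc (adjusted p = 0.104 and 0.115), Hist2h2bb (adjusted p = 0.098 and 0.101) and Hist2h2be (adjusted p = 0.099 and 0.073) were lost. Leaving out WT replicate 1 also ended the Hist2h2be call (adjusted p = 0.0505), as did spike-in scaling (0.22, adjusted p = 0.137). The call of Hist1h2bn was lost without KO-labelled replicate 1 (0.59, adjusted p = 0.063), WT replicate 1 (adjusted p = 0.129) or WT replicate 2 (adjusted p = 0.083). With no variance trend neither Hist1h2bb (adjusted p = 0.056) nor Hist1h2bn (adjusted p = 0.061) passed, and Hist1h2bn did not with robust variances (adjusted p = 0.063).

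**Figure D3:**
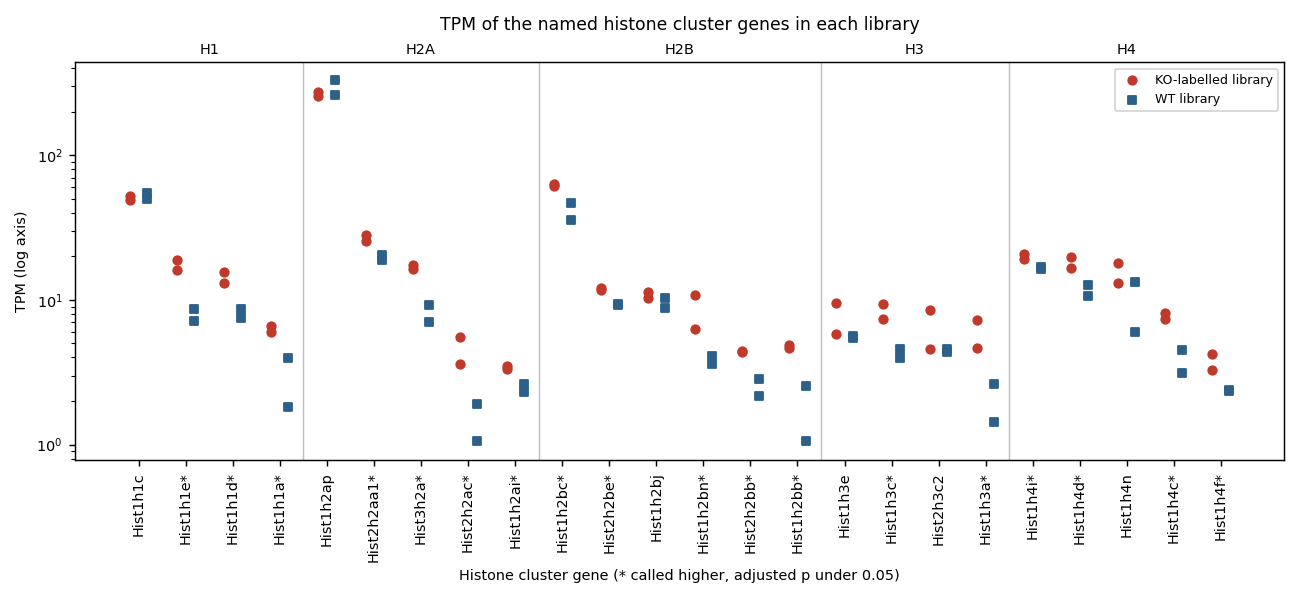
TPM on a log axis of the named histone cluster genes in each of the 2 KO-labelled libraries (red circles) and 2 WT libraries (blue squares), by class, with a star for genes called higher. Hist1h2ap and Hist1h1c, among the most abundant, overlap between groups, and in the 18 starred genes both circles lie above both squares.

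H3 pairs with H4 in the nucleosome core, and 2 of the 9 kept H3 genes rose, with 0 lower and all 9 changes above 0. The called share, 22.2%, was near the 18.9% of all kept genes that rose, and 58.8% of all kept genes had a change above 0. Hist1h3a (chr13:23761853-23762386) had 7.31 and 4.66 TPM in the KO-labelled libraries, against 2.61 and 1.43 TPM in WT, which was the largest change of the 56 genes (1.21, SE 0.25, adjusted p = 0.020). Hist1h3c (chr13:23744973-23745602) had 9.32 and 7.43 TPM in the KO-labelled libraries and 3.97 and 4.59 TPM in WT (0.82, SE 0.12, adjusted p = 0.0073). In both genes the lower KO-labelled library was above the higher WT library. Hist1h3e, at 5.83 and 9.56 TPM in the KO-labelled libraries and 5.43 and 5.60 TPM in WT, did not pass (0.38, adjusted p = 0.21). Neither did Hist2h3c2, at 8.47 and 4.61 TPM in the KO-labelled libraries and 4.36 and 4.55 TPM in WT (0.42, adjusted p = 0.24). In each of these a single KO-labelled library was high, the second for Hist1h3e and the first for Hist2h3c2. Leaving out the other KO-labelled library made each pass, Hist1h3e at 0.70 (adjusted p = 0.033, without KO-labelled replicate 1) and Hist2h3c2 at 0.80 (adjusted p = 0.028, without KO-labelled replicate 2). The Hist1h3a call was lost without KO-labelled replicate 1 (adjusted p = 0.118) or 2 (adjusted p = 0.054) or WT replicate 2 (adjusted p = 0.070), and that of Hist1h3c without KO-labelled replicate 1 (adjusted p = 0.053).

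All 13 H4 genes were kept, and 4 rose (30.8%, against 18.9% of all kept genes), 0 fell and 9 did not pass. Hist1h4d (chr13:23581598-23582735) had 19.8 and 16.5 TPM in the KO-labelled libraries, against 10.6 and 12.6 TPM in WT (0.60, SE 0.11, adjusted p = 0.015). Hist1h4i (chr13:22040636-22041362) had 20.9 and 19.2 TPM in the KO-labelled libraries and 16.8 and 16.4 TPM in WT (0.26, SE 0.059, adjusted p = 0.025). Hist1h4i had the smallest change of the 18 called genes. Hist1h4c (chr13:23697635-23698454) had 7.32 and 8.06 TPM in the KO-labelled libraries and 3.14 and 4.51 TPM in WT (0.86, SE 0.15, adjusted p = 0.011). Hist1h4f (chr13:23551258-23551648) had 3.26 and 4.25 TPM in the KO-labelled libraries and 2.33 and 2.40 TPM in WT (0.49, SE 0.13, adjusted p = 0.040). Hist1h4n, with 18.1 and 13.1 TPM in the KO-labelled libraries and 13.2 and 6.03 TPM in WT, overlapped between the groups and did not pass (0.72, SE 0.34, adjusted p = 0.17). Leaving out WT replicate 1 made Hist1h4n pass (1.23, adjusted p = 0.028). It shares its coding sequence with Hist1h4m, which was listed at 0 in 1 library of each group. The sum of that pair was 18.1 and 15.2 TPM in the KO-labelled libraries, against 13.2 and 9.31 TPM in WT, and did not overlap between the groups. The H4 class also held 5 of the 10 negative changes among the 56 genes, from -0.13 to -0.59, none of which passed. The Hist1h4c call was lost without KO-labelled replicate 1 (adjusted p = 0.075) or 2 (adjusted p = 0.091), and that of Hist1h4d without KO-labelled replicate 1 (adjusted p = 0.096) or WT replicate 1 (adjusted p = 0.068). Those of Hist1h4f (adjusted p = 0.056 to 0.16) and Hist1h4i (adjusted p = 0.069 to 0.15) were lost without any 1 library, and on the spike-in scale (0.40, adjusted p = 0.078 for Hist1h4f, and 0.15, adjusted p = 0.28 for Hist1h4i). Quantile scaling also ended the calls of Hist1h4f (adjusted p = 0.055) and Hist1h4i (adjusted p = 0.052).

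By cluster, 13 of 45 kept Hist1 genes (28.9%), 4 of 8 kept Hist2 genes and 1 of 2 kept Hist3 genes rose, against 18.9% of all kept genes. The only Hist4 gene did not pass (-0.27, adjusted p = 0.42). The Hist2 genes summed to 66.5 and 63.0 TPM in the KO-labelled libraries, against 48.9 and 42.1 TPM in WT, and the Hist3 genes to 18.3 and 20.3 TPM, against 9.52 and 10.8 TPM in WT. The Hist3 sum is mostly Hist3h2a. The Hist1 genes summed to 636 and 620.2 TPM in the KO-labelled libraries, against 514 and 589 TPM in WT, a ratio of 1.14. The Hist1 cluster lies on chromosome 13 in 3 blocks, with the pseudogene Hist1h2al apart from them. In the first block (chr13:21715763-21837530) 2 of 15 kept genes rose, in the second (chr13:22035164-22043676) 1 of 5, and in the third (chr13:23531050-23934851) 10 of 25, beside 18.9% of all kept genes. The third block's 31 genes summed to 257 and 246 TPM in the KO-labelled libraries, against 170 and 181 TPM in WT. The second block's 5 genes summed to 43.6 and 36.2 TPM in the KO-labelled libraries and 35.2 and 34.4 TPM in WT. The first block holds Hist1h2ap and summed to 336 and 338 TPM in the KO-labelled libraries and 309 and 374 TPM in WT, which overlap. Without Hist1h2ap, an exclusion that was not planned, its other 17 genes summed to 77.7 and 65.2 TPM in the KO-labelled libraries and 47.7 and 44.8 TPM in WT. The difference between blocks was not tested.

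**Figure D4:**
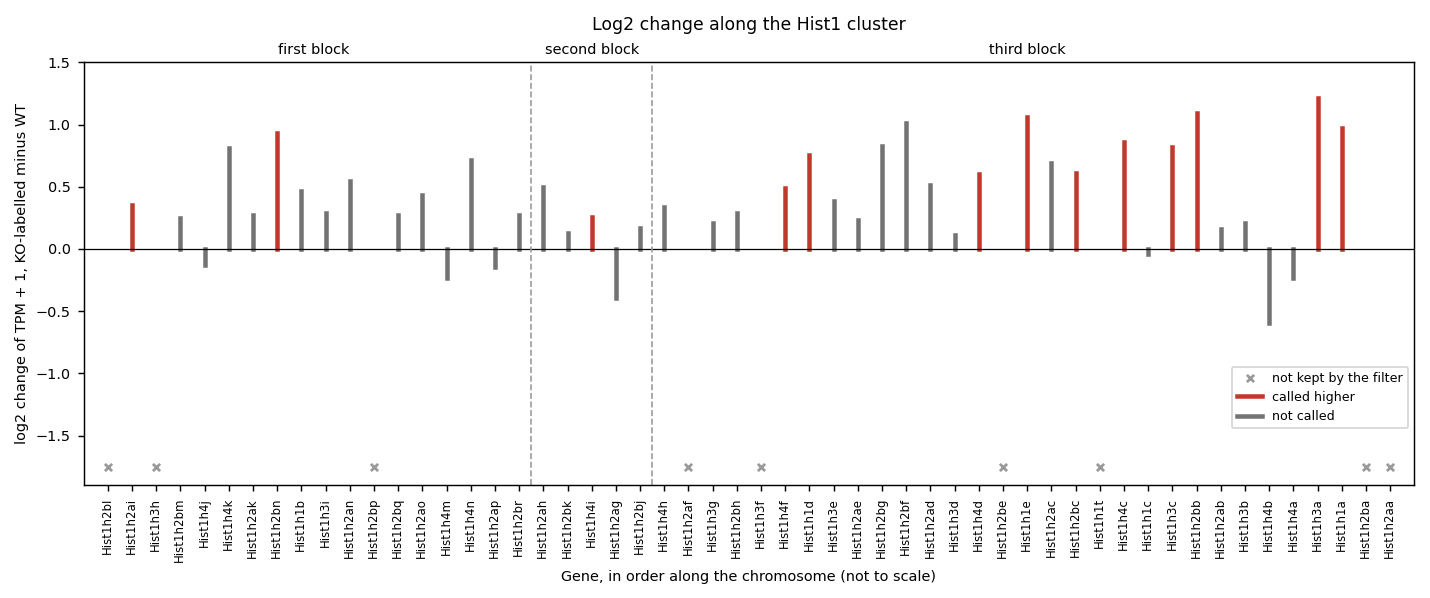
Log2 change of TPM + 1, KO-labelled minus WT, of the Hist1 genes in their order along the chromosome, not to scale, with red bars for genes called higher, grey bars for genes not called and crosses for genes not kept. Of the 13 red bars 10 stand in the third block, which also holds the largest number of kept genes, 25.

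Neighbouring genes did not always share a call. Within 500 bases between starts, 13 pairs of genes are transcribed away from each other, and all 13 join an H2A and an H2B gene. Both genes were called in 1 pair, Hist2h2ac and Hist2h2be, in the promoter window printed above. In another 4 pairs 1 gene was called, and in 8 pairs none was. Of all kept genes 18.9% were called higher, a share of single genes and not of pairs. Among the 8, Hist1h2ba and Hist1h2aa were both not kept and so not tested, and neither was Hist1h2bp, the partner of Hist1h2an. Of the 4, Hist1h2bc was called while Hist1h2ac, whose start lies 251 bases away, had a change of 0.69 (adjusted p = 0.081). Hist1h2bn was called while Hist1h2ak, 296 bases away, had a change of 0.27 (adjusted p = 0.18). The partners of Hist1h2ai and Hist3h2a, Hist1h2bl and the pseudogene Hist3h2bb-ps, were not kept, so these pairs do not show calls that differ. Hist3h2bb-ps had 0.89 and 0.89 TPM in the KO-labelled libraries and 0.27 and 0.34 TPM in WT. With no filter both it and Hist3h2a were called higher, and neither Hist1h2ai nor Hist1h2bl was. The promoter motifs were found in called and in uncalled genes: CCAAT was in 13 of 15 promoters of called genes and 29 of 36 of uncalled kept genes, TATAAA in 10 of 15 and 20 of 36, and the octamer in 4 of 15 and 7 of 36. Paired genes share DNA in these windows, so the counts are not of independent promoters.

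Called genes were found with and without the stem-loop in the annotated transcript, in 12 of 39 kept genes with it and 6 of 17 without. These and the counts below stand beside 18.9% of all kept genes called higher. The genes without it summed to 145 and 141 TPM in the KO-labelled libraries, against 89.8 and 94.1 TPM in WT, a ratio of 1.55. Genes whose annotation runs over 300 bases past the stem-loop, a length chosen after the values were seen, summed to 183 and 170 TPM in the KO-labelled libraries, against 130 and 131 TPM in WT. Genes whose annotation ends within 300 bases of it, among them Hist1h2ap, summed to 393 and 393 TPM in the KO-labelled libraries and 354 and 418 TPM in WT. The called shares of kept genes were 6 of 15 for the longer and 6 of 24 for the shorter. Reads shared by near-identical copies make their values uncertain. A copy at least 99% identical in coding sequence exists for 19 of the 69 genes, and 2 of the 17 kept among them were called, Hist1h2bc and Hist2h2aa1. Of the 33 kept genes whose closest copy of equal length is less alike, 13 were called.

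Other genes of histone supply had smaller median changes. Of 11 kept genes for replacement histones outside the clusters, 4 rose (36.4%, against 18.9% of all kept genes), 0 fell and 7 did not pass, with a median change of 0.12. H2afy, which encodes macroH2A, had 607 and 636 TPM in the KO-labelled libraries, against 457 and 449.7 TPM in WT (0.45, SE 0.035, adjusted p = 0.0011). H1f0, a replacement linker histone, had 212 and 210.2 TPM in the KO-labelled libraries, against 173 and 184 TPM in WT (0.24, adjusted p = 0.0096), and H2afx, the variant phosphorylated at DNA breaks, 195 and 204 TPM, against 158 and 171 TPM in WT (0.27, adjusted p = 0.013). The H1f0 and H2afx calls were lost without KO-labelled replicate 1 (adjusted p = 0.096 and 0.075) or 2 (adjusted p = 0.086 and 0.110) and with spike-in scaling (0.12, adjusted p = 0.26, and 0.16, adjusted p = 0.17). Of 19 factors of histone mRNA synthesis and 3′ end formation 4 rose (21.1%, against 18.9% of all kept genes), 1 fell and 14 did not pass, with a median of -0.01. The 1 that fell was Slbp, the stem-loop binding protein, with 84.9 and 82.7 TPM in the KO-labelled libraries and 96.2 and 91.7 TPM in WT (-0.16, SE 0.040, adjusted p = 0.032). Its call was lost without KO-labelled replicate 1 (adjusted p = 0.136) or 2 (adjusted p = 0.187) or WT replicate 1 (adjusted p = 0.094), and spike-in scaling ended it too (-0.28, adjusted p = 0.057). Cpsf2, a subunit of the 3′ end cleavage complex, had 51.7 and 52.3 TPM in the KO-labelled libraries and 45.7 and 45.1 TPM in WT (0.19, adjusted p = 0.016). Zcchc11, a terminal uridylyltransferase, had 29.6 and 29.5 TPM in the KO-labelled libraries and 24.1 and 25.5 TPM in WT (0.24, adjusted p = 0.017). Neither Cpsf2 (adjusted p = 0.107 and 0.119) nor Zcchc11 (adjusted p = 0.112 and 0.107) passed without KO-labelled replicate 1 or 2, nor with spike-in scaling (0.08, adjusted p = 0.54, and 0.13, adjusted p = 0.24), and Zcchc11 did not without WT replicate 1 (adjusted p = 0.061). The other genes called in these 2 lists were H2afz (0.12, adjusted p = 0.042), Cstf2 (0.17, adjusted p = 0.039) and Eri1 (0.19, adjusted p = 0.039), the last of which encodes an exonuclease that trims histone mRNA ends. These calls lie near the threshold and were not followed through the alternatives.

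Of 20 histone chaperones and assembly factors 2 rose (10%, against 18.9% of all kept genes), 0 fell and 18 did not pass, with a median of 0.05. Nap1l1, an H2A and H2B chaperone, had 501 and 491 TPM in the KO-labelled libraries, against 387 and 398 TPM in WT (0.34, SE 0.033, adjusted p = 0.0020), and its change with spike-in scaling was 0.22 (adjusted p = 0.087). Hat1, which acetylates new H4, had 116 and 110.4 TPM in the KO-labelled libraries and 103.2 and 102.7 TPM in WT (0.13, adjusted p = 0.048), a call lost without any 1 library (adjusted p = 0.105 to 0.26) and absent on the spike-in scale (0.019, adjusted p = 0.90). Chaf1a, the large subunit of chromatin assembly factor, did not pass (-0.12, adjusted p = 0.059) with the deposited scaling. Among 24 genes that mark S phase, 1 rose (4.17%, against 18.9% of all kept genes), 4 fell and 19 did not pass, with a median of -0.02. Of all kept genes 11.6% fell. Their sum was 2311 and 2309 TPM in the KO-labelled libraries and 2362 and 2353 TPM in WT. Rrm2, a subunit of ribonucleotide reductase, had 168 and 168 TPM in the KO-labelled libraries and 193 and 193 TPM in WT (-0.20, SE 0.030, adjusted p = 0.0075). Ccne1, the S-phase entry cyclin, had 20.1 and 21.3 TPM in the KO-labelled libraries and 25.6 and 25 TPM in WT (-0.28, adjusted p = 0.013), and Lig1, the replicative ligase, had 64.3 and 65.3 TPM, against 73.5 and 72.8 TPM in WT (-0.17, adjusted p = 0.018). These 3 calls were lost without KO-labelled replicate 1 (adjusted p = 0.086 for Rrm2, 0.0995 for Ccne1 and 0.137 for Lig1) or 2 (adjusted p = 0.085, 0.061 and 0.110 in the same order), and those of Ccne1 and Lig1 without WT replicate 1 (adjusted p = 0.062 and 0.058). The other called genes were E2f1, which fell (-0.16, adjusted p = 0.036), and Cdt1, which rose (0.16, adjusted p = 0.034). Neither call was followed through the alternatives. The difference between the lists was not tested.

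**Figure D5:**
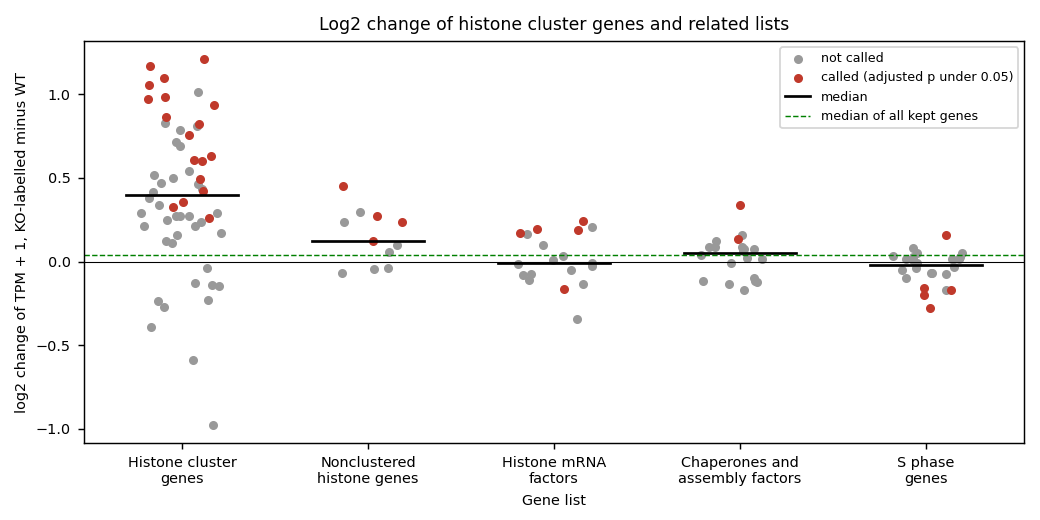
Log2 change of TPM + 1, KO-labelled minus WT, of the kept genes of 5 lists, with red for genes called in either direction, black bars for list medians and a dashed line for the median of all kept genes. The histone cluster genes have a median of 0.40 and the widest spread, and the S phase genes a median of -0.02.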

How the data were processed

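RNA-seq was analysed in 2 KO-labelled and 2 WT libraries, placed in their groups by title. The values are TPM in the table the authors deposited, a unit read from the column sums, which are all close to the same total (999999.78 in the first KO-labelled library). The submitters' processing notes name STAR, RSEM and mm10. Tool versions, annotation and strand setting are not given in the sources used here. RSEM can divide reads between near-identical copies or overlapping genes, so such values are uncertain. Of 24589 entries, the 92 spike-ins entered no test. The 11837 genes that reached 1 TPM in 2 or more libraries were compared on log2(TPM + 1) with limma 3.58.1 (R 4.3.3) with a variance trend and no replicate block, on 2 residual and 3.51 prior degrees of freedom. Adjusted p are two-sided and by the Benjamini-Hochberg method over all kept genes. Because a 0 may be a failed estimate, it is given as listed at 0. Coordinates and transcripts came from GENCODE release 21 on GRCm38, promoters from RefSeq.

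Members and lists were chosen with earlier results of these data known. Named are all called members, the 3 highest in each class, up to 3 genes of each other list with the smallest p, and Tet2. Other genes named were chosen after their values were seen. Alternatives were other scalings (trimmed means, quantiles, spike-ins), filters, pseudocounts and variance models, a replicate block and leaving out each library. The limma step was tested on simulated data.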

Additional observations from a re-analysis of the deposited data

How the results depend on the processing

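Of 56 kept histone cluster genes 18 were higher and 0 lower. With no filter, 66 genes were tested and 9 were higher, 8 of them among the 18 and the other the pseudogene Hist3h2bb-ps. The count was 12 of 21 at a filter of 5 TPM (21.95% of all genes tested there were higher) and between 14 and 21 under the other alternatives that kept all libraries, with 5.33% of all genes higher at the lowest count (spike-in scaling) and 15.95% at the highest (replicate block), against 18.9% as reported. Leaving out each library in turn gave 6 to 15 higher genes and 0 or 1 lower, the fewest without KO-labelled replicate 1 (6) and 2 (7). The single lower call was Hist1h4a without KO-labelled replicate 2 and Hist1h2ap without WT replicate 1. Deviations of same-numbered libraries from their group means correlated at -0.11 over kept genes, so the numbers gave no pairing. A replicate block gave 21 higher genes and 1 lower (Hist2h2aa2), and a crossed block, chosen after seeing the data, 19 and 1. The block ended the Hist1h2ai call (adjusted p = 0.071) and made Hist1h4n pass (0.72, adjusted p = 0.028), while Hist1h4n did not pass with the crossed block (adjusted p = 0.141). With each library left out, the change of Hist1h1c, -0.04, ran from -0.10 without WT replicate 2 to 0.022 without WT replicate 1, and it was -0.16 with spike-in scaling. In the same way, that of Hist1h2ap, -0.14, ran from -0.31 without WT replicate 1 to 0.020 without WT replicate 2. The cause was not tested. Chaf1a passed with trimmed-mean scaling (-0.17, adjusted p = 0.025) and quantile scaling (-0.15, adjusted p = 0.036). Read depth is unknown, so low TPM limits these values by an amount that cannot be given.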
